A study of Rattus norvegicus with 30 samples.

Results

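The change of each transcript in the proximal sciatic nerve (SN) at 4 d post nerve transection was compared with its change in the dorsal root ganglia (DRG) at the same day. The quantity compared was the interaction, which is the log2 change in SN (4 d minus 0 d) minus the log2 change in DRG (4 d minus 0 d). All 41012 non-control probes of 12 arrays were members, with 3 arrays in each of 4 groups by sample title, out of 30 arrays in the series. Adult male Sprague-Dawley rats had a segment of the left sciatic nerve resected at mid-thigh, and the lumbar DRG and a short piece of the proximal nerve stump were collected 4 d later or, for the control groups, at 0 d. The 0 d and 4 d groups shared strain and sex, and each tissue had its own 0 d control. The paper sets its transection groups against a 0 h control, so the groups differed in the injury as well as in the day of collection. No sham-operated group is among the samples. Effects of the nerve cut, of the surgery around it and of time therefore cannot be told apart. The labels do not state which rats each array holds, so the p-values measure the spread between arrays, which may be technical in part.

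The sciatic nerve holds the axons of sensory and motor neurons with their Schwann cells, fibroblasts, vessels and resident immune cells, but not the neuronal cell bodies. The bodies of the sensory neurons lie in the DRG, each wrapped by satellite glia. After a cut, signals travel back along the axon and switch the neuron to a growth program, while Schwann cells of the stump lose their myelin program and macrophages enter the nerve. Some neuronal mRNA is also carried into the axons. In these bulk samples, fewer cells of a type and less RNA per cell cannot be told apart.

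The labelled tissues were set against defining markers. The mean normalized signal (log2, relative to the 75th percentile of the array) was taken over each marker list. For 13 sensory neuron markers it lay between 4.07 and 4.51 on the DRG arrays and between -3.03 and -2.44 on the SN arrays. For 10 Schwann cell markers it lay between 3.57 and 3.88 in SN at 0 d and between 2.62 and 2.88 at 4 d. In DRG these markers lay between 2.47 and 2.66 at 0 d and between 2.18 and 2.47 at 4 d, so they separated the tissues little at 4 d. Between 26941 and 34742 probes per array were detected, that is, marked by the scanner software as well above background. DRG arrays 2 and 3 of 0 d, which lay together on a slide without nerve arrays, stood apart with 26941 and 28560 such probes, against 32602 on DRG array 1. All 0 d arrays of both tissues were scanned on the same day and all 4 d arrays on another, so that within a tissue the scan day and the day post injury cannot be told apart. Transcripts of skeletal muscle varied between arrays. The mean signal of 7 skeletal muscle markers was 7.6, 3.41 and 3.92 on the SN arrays of 0 d, 1.41, -1.12 and -0.3 on those of 4 d, then 1.36, 4.46 and 2.67 on the DRG arrays of 0 d, and 3.55, 3.94 and 1.77 on those of 4 d.

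**Figure D1:**
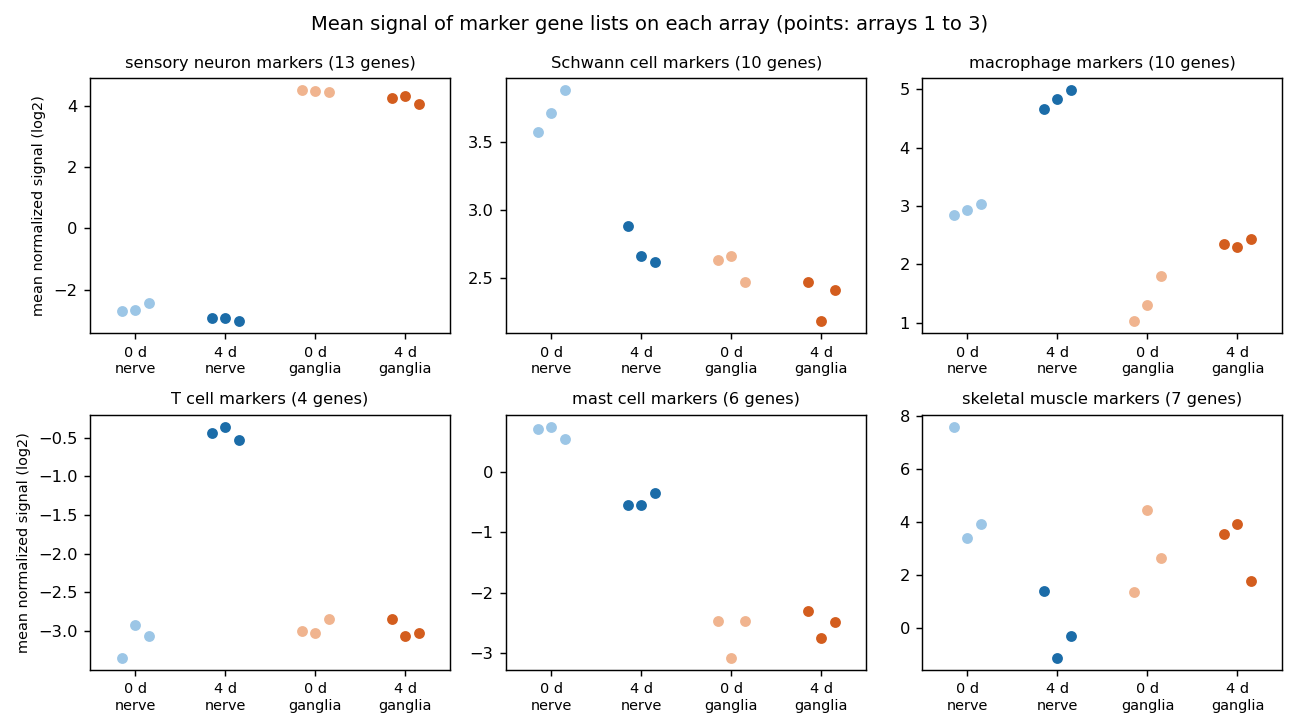
Mean normalized signal (log2, vertical axis) of 6 marker gene lists on each of the 12 arrays, with groups by day and tissue on the horizontal axis and 1 point per array. Sensory neuron markers separate the tissues, T cell markers lay between -0.53 and -0.36 on the SN arrays of 4 d and between -3.35 and -2.84 on the other 9 arrays, and skeletal muscle markers spread widely within groups.

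A probe was tested if in each tissue 1 of the 2 days, or both, had it detected in all 3 replicates, which held for 32117 probes (78.3%). A further 1058 probes were measured in SN only, 1808 in DRG only and 6029 in neither, and these were not sorted. The interaction counted as called when its limma p, adjusted by Benjamini-Hochberg over these probes, was under 0.05 and the difference exceeded 2-fold. The test passed for 5813 probes (18.1% of those tested), of which 2916 (9.08%) moved further upward in SN and 2897 (9.02%) further upward in DRG. By the adjusted p alone, 15081 probes (47%) differed. The nerve moved more widely: the SD of the log2 change over probes was 0.94 in SN and 0.54 in DRG, and 65.9% of the tested probes had the larger absolute change in SN. The medians over all tested probes were 0.11 in SN, 0.13 in DRG and -0.08 for the difference, and the values of gene lists below are to be read against them.

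The probes were sorted by the calls in each tissue (adjusted p under 0.05 and over 2-fold). A probe called in a single tissue was put in the nerve-only or ganglion-only class only if the interaction was called too. The nerve-only class held 3800 probes, 2173 upregulated (6.77%) and 1627 downregulated (5.07%). The ganglion-only class held 360 probes, 337 upregulated (1.05%) and 23 downregulated (0.0716%). Both tissues changed in the same direction for 1041 probes (3.24%) and in opposite directions for 60 probes (0.187%). Another 2026 probes were called in SN and 599 in DRG without a called difference, so they were not assigned to a tissue. In the remaining 24231 probes neither tissue passed, although the interaction was called for 1379 of them. The class counts of gene lists below are to be read against these shares of all tested probes.

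**Figure D2:**
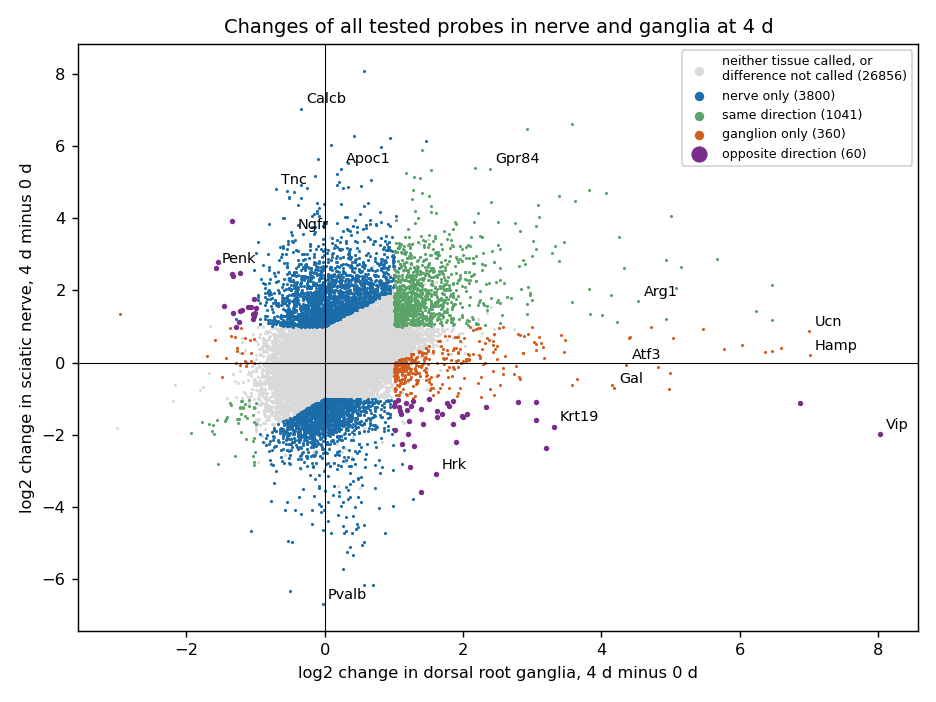
Log2 change in DRG (horizontal axis) against log2 change in SN (vertical axis), 4 d minus 0 d, with 1 point for each of the tested probes coloured by class and 15 genes named. Nerve-only probes form bands above and below the horizontal line at 0, and the 60 opposite-direction probes lie in the upper left and lower right.

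These counts were set against the arrays that stood apart. With the DRG control on slide 1 as the single control array, 4871 interactions were called, with 3103 nerve-only, 351 ganglion-only, 1218 same-direction and 79 opposite-direction probes. With only the arrays on slides 1 and 5, which carry both tissues of a day, the counts were 5023, 3135, 372, 992 and 67. The first setting leaves 1 DRG array at 0 d, and the second also leaves 1 SN array at 4 d, so a lone array was assumed to vary like those of the other groups. The ganglion-only count moved most with DRG array 1 of 4 d, rising from 360 to 688 without that array. It was lowest, at 250, without DRG array 3 of 4 d. The opposite-direction count was 98 without DRG array 1 of 0 d. Dim probes were frequent in the same-direction class, of which 312 probes were detected on all 12 arrays, against 2903 of the 3800 nerve-only probes.

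Among injury-induced transcription factors, Atf3 (activating transcription factor 3, a stress-induced member of the ATF/CREB family) rose in the ganglia alone. Its normalized signal (log2) was 1.4, 1.63 and 1.67 in DRG at 0 d and 5.74, 5.86 and 6.17 at 4 d, while in SN it was 2.99, 3.2 and 3.4 at 0 d and 3.15, 3 and 3.27 at 4 d. The days did not overlap in DRG and overlapped in SN. The log2 change was 4.36 in DRG and -0.06 in SN, with a difference of -4.41 ± 0.16 (SE, limma adjusted p = 5.6e-15). The probe lies at chr13:107191691-107191749 (rn4). Jun, a partner of Atf3, rose by 1.8 in DRG and changed by 0.75 in SN, under 2-fold, and its difference of -1.05 ± 0.17 was -0.87 and below 2-fold after quantile normalization, and also without SN array 2 of 0 d (-0.89) or DRG array 3 of 4 d (-0.93). Of the 25 tested factors of this list, 3 were ganglion only upward (Atf3, Jun and Smad1), 3 nerve only upward and 2 nerve only downward, 2 rose in both tissues, 4 were called in a tissue without a called difference and 11 in neither. Over all tested probes, 1.05% were ganglion only upward, 6.77% nerve only upward and 5.07% nerve only downward. Fosl1, a Fos family member, went the other way from Atf3. It was between -3.69 and -2.86 in SN at 0 d and between 1.73 and 2.03 at 4 d, a log2 change of 5.25, against 1.17 in DRG, and the difference was 4.08 ± 0.41. Atf5 fell by 1.66 in SN and changed by 0.66 in DRG (difference -2.32 ± 0.18). Sox11, a developmental factor of neurons, rose in both tissues, by 2.64 in DRG and, from a level detected on no SN array of 0 d, at least 3.24-fold in SN. Its SN signal was between -6.55 and -6.43 at 0 d and -4.07, -3.94 and -6.01 at 4 d, so that this rise rested mainly on 2 arrays. In DRG, Sox11 was detected on 1 of the 3 arrays of 0 d.

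Neuropeptides, which sensory neurons store and release as transmitters, included large differences in both directions. Vip (vasoactive intestinal peptide) had signals of -2.97, -4.05 and -3.07 in DRG at 0 d and 4.29, 4.63 and 5.08 at 4 d, and of -0.6, -1.72 and -0.32 in SN at 0 d and -2.99, -2.9 and -2.7 at 4 d. The days did not overlap in either tissue and moved in opposite directions. The log2 change was 8.03 in DRG and -1.98 in SN, and the difference of -10.01 ± 0.43 (adjusted p = 7.85e-14) was the largest among the named genes. Gal (galanin) rose from 3.2, 3.11 and 3.13 to 7.03, 7.29 and 7.66 in DRG, a log2 change of 4.18, whereas in SN it went from 2.32, 2.38 and 2.81 to 1.77, 1.77 and 1.86 (-0.7). Ucn (urocortin, a ligand of the corticotropin-releasing factor receptors) rose from between -4 and -3.79 to between 2.79 and 3.52 in DRG, a change of 7, and changed by 0.87 in SN (difference -6.13 ± 0.27). Npy (neuropeptide Y) rose by 3.05 in DRG and changed by 0.51 in SN, with a wider SE of 0.69 for the difference.

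Calcb, which encodes the beta form of calcitonin gene-related peptide, showed the reverse. It was 5.11, 5.18 and 5.14 in DRG at 0 d and 4.77, 5.07 and 4.57 at 4 d, and it went from -5.89, -5.78 and -4.57 to 1.51, 1.79 and 1.56 in SN. The change was 7.04 in SN and -0.34 in DRG (difference 7.37 ± 0.31, adjusted p = 6.66e-14). Its level in SN at 4 d stayed below every DRG array. Calca, which encodes the alpha form, changed by 0.76 in SN and -0.01 in DRG and did not pass in either, although another Calca probe had a called difference of 1.13. Tac1, the precursor of substance P, changed by -0.62 and -0.44. Penk, the enkephalin precursor, rose in SN from -1.56, -1.63 and -2.4 to 0.65, 1.09 and 0.53 and fell in DRG from -1.24, -0.99 and -0.83 to -2.44, -3.17 and -2.17, so that the groups did not overlap in either tissue and the difference was 4.19 ± 0.37, while another probe of Penk gave 0.76, which was not called. Of the 14 tested peptide genes, 5 were ganglion only upward, 2 nerve only upward, 1 nerve only downward, 2 upregulated in both, 2 opposite and 2 called in neither. Their median difference was -0.78.

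**Figure D3:**
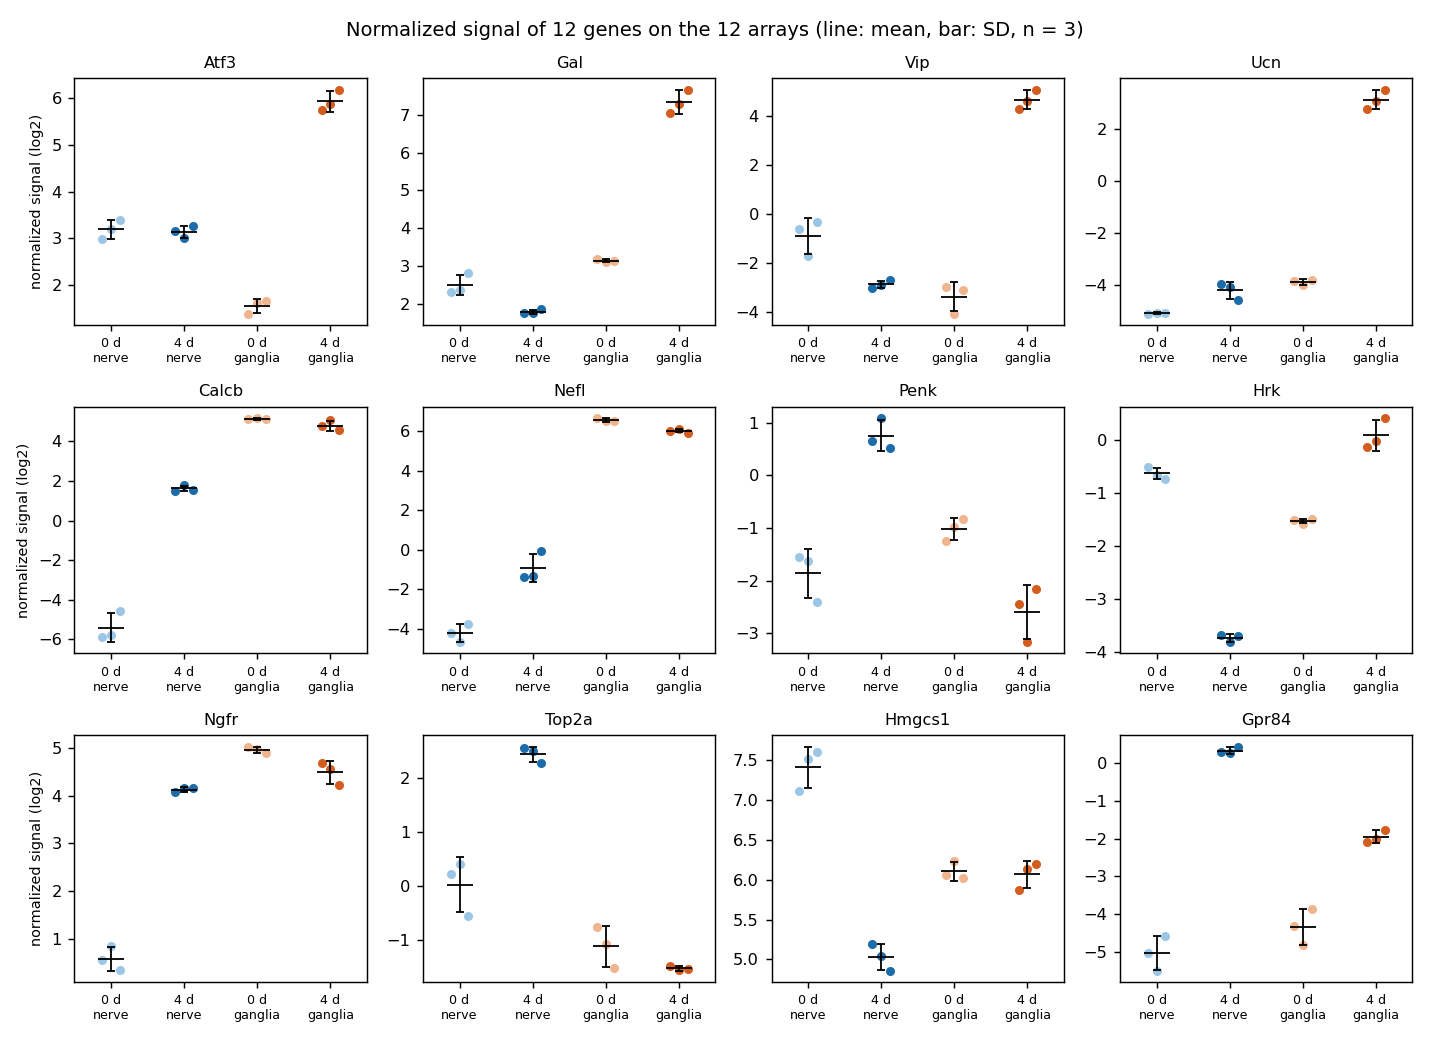
Normalized signal (log2, vertical axis) of 12 genes on the 12 arrays, with 1 point per array, a line at the mean and a bar of 1 SD (n = 3) for each group. Atf3, Gal, Vip and Ucn rise in DRG without a rise of like size in SN, Calcb, Nefl, Ngfr and Top2a rise in SN, Penk and Hrk move in opposite directions, Hmgcs1 falls in SN and Gpr84 rises in both.

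Genes tied to axon growth included Gap43 and Flrt3, which passed the threshold for a rise in the ganglia alone. Of 20 tested, 7 were ganglion only upward (Gap43, Stmn4, Hspb1, Gadd45a, Csrp3, Flrt3 and Cacna2d1), 1 nerve only upward and 2 nerve only downward, 3 rose in both, 2 were called in SN without a called difference and 5 in neither. The median change was 1.05 in DRG and 0.45 in SN, and the median difference was -1.83. Gap43, a protein of the growth cone, was 5.28, 5.31 and 5.3 in DRG at 0 d and 6.47, 6.59 and 6.86 at 4 d, and 1.6, 1.83 and 0.98 in SN at 0 d and 0.81, 0.84 and 1.1 at 4 d. The changes were 1.34 and -0.55 (difference -1.89 ± 0.21). Flrt3, a leucine-rich membrane protein, rose by 3.03 in DRG and by 0.57 in SN, under 2-fold, and the days did not overlap in either tissue. Arg1 (arginase 1) rose in both tissues and further in DRG, by 4.53 against 1.7 (difference -2.83 ± 0.31). Csrp3, a muscle LIM protein that is also induced in injured sensory neurons, rose in DRG from -3.73, -0.88 and -2.13 to 3.57, 3.65 and 4.12. In SN its arrays spread from -5.45 to -0.1 at 0 d, with the highest value on the array highest in muscle markers, and the call of its difference of -5.55 ± 1.6 was lost with slide as a fixed block. The part of muscle tissue in the Csrp3 values of SN was not tested.

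Besides Ucn, the ganglion-only genes with the largest differences included secreted and signaling molecules. Hamp, the precursor of the iron hormone hepcidin, was -4.14, -3.94 and -3.76 in DRG at 0 d and 3.15, 2.73 and 3.31 at 4 d, and stayed between -3.67 and -2.9 in SN on all 6 arrays. Its change was 7.01 in DRG and 0.21 in SN (difference -6.8 ± 0.33). Il24 (interleukin 24) rose by 4.99 in DRG and changed by -0.29 in SN, and Ptprh, a receptor-type tyrosine phosphatase, by 5.77 and 0.37. Serpina3n, a serine protease inhibitor, rose by 5.03 in DRG up to between 5.38 and 5.83, and was already between 4.42 and 5.07 in SN at 0 d. Il1r2, the decoy receptor of interleukin 1, rose by 3.15 in DRG and changed by 0.43 in SN. Of the 23 ganglion-only probes that fell, the 5 named genes are given. Amigo3, an adhesion molecule, fell by 1.58 in DRG (difference 2.22 ± 0.23). Asic1, an acid-sensing channel, fell by 1.3 on its brightest probe, but 3 other probes of that gene gave differences of -0.03, -0.58 and -0.14, so the gene is uncertain. Oasl, Cacng2 and Polm were also named, and each lost its call in some setting, Polm in 17. Polm was 0.69 without DRG array 2 of 0 d, the highest of its 3 controls.

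Several neuronal transcripts that are abundant in DRG rose in SN from a low signal. Nefl (neurofilament light chain) was -4.22, -4.67 and -3.78 in SN at 0 d and -1.37, -1.31 and -0.09 at 4 d, against 6.65, 6.5 and 6.48 and then 6.02, 6.09 and 5.92 in DRG. The changes were 3.3 and -0.53 (difference 3.83 ± 0.42). Nefm, the medium chain, rose by 2.9 in SN and changed by -0.23 in DRG. Scn10a, a sodium channel of nociceptors, was -5.64, -5.56 and -5.53 in SN at 0 d and -4.13, -4.06 and -5.45 at 4 d, so that the rise of 1.03 rested on 2 arrays, and the call of its difference was lost with slide as a fixed block. Trpa1, an irritant-sensing channel, and Scn1a, a sodium channel, were detected on no SN array of 0 d and rose at least 1.09-fold and at least 1.3-fold. Of the 27 tested channels and receptors of sensory neurons, 7 were nerve only upward and 4 nerve only downward, 1 each was ganglion only upward and downward, 1 rose in both, 1 (Scn3a) was opposite, 2 were called in a tissue without a called difference and 10 in neither. Over 13 sensory neuron markers as a whole, the SN level did not rise, at -2.69, -2.66 and -2.44 at 0 d and -2.92, -2.92 and -3.03 at 4 d. Scn3a, a sodium channel of developing neurons, rose by 1.5 in DRG and fell by 1.01 in SN.

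Cell cycle genes were upregulated in the nerve alone. Of 28 tested, 26 were nerve only upward, 1 was called in SN without a called difference and 1 in neither. The median change was 2.1 in SN and -0.3 in DRG, with a median difference of 2.48. Top2a (topoisomerase II alpha, of dividing cells) was 0.22, 0.41 and -0.54 in SN at 0 d and 2.54, 2.49 and 2.28 at 4 d, and -0.76, -1.06 and -1.51 in DRG at 0 d and -1.47, -1.55 and -1.52 at 4 d. The days did not overlap in SN, and the difference was 2.82 ± 0.25 (adjusted p = 1.04e-08). Birc5 (survivin) rose by 3.79 in SN and changed by -0.03 in DRG, Rrm2 (a ribonucleotide reductase subunit) by 2.65 and -0.8, and Ccna2 (cyclin A2) by 2.69 and -0.55.

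Cholesterol synthesis genes fell in the nerve alone. Of 23 tested, 22 were nerve only downward and the last, Srebf2, passed in neither tissue. The median change was -1.93 in SN and -0.05 in DRG, with a median difference of -1.81. Hmgcs1 (HMG-CoA synthase 1) was 7.12, 7.51 and 7.61 in SN at 0 d and 5.19, 5.04 and 4.86 at 4 d, against 6.06, 6.24 and 6.02 and then 5.87, 6.13 and 6.2 in DRG. The days did not overlap in SN and overlapped in DRG, and the difference was -2.34 ± 0.18 (adjusted p = 5.99e-10). Tm7sf2, a sterol reductase, fell by 2.65 in SN and changed by -0.26 in DRG.

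The genes of these groups were selected by class, so the members of a group moved alike by construction. Promoter windows are shown for some of them as a description. They run from 250 bases before to 50 after the start of the RefSeq gene model (build GRCr8, 300 bases, in the direction of transcription). Capitals mark the CRE (TGACGTCA) and AP-1 (TGANTCA) letters for the ganglion-only genes Ucn and Hamp, the CHR (TTTGAA) and CCAAT letters for the cell cycle genes Top2a and Birc5, and the CCAAT letters for the cholesterol synthesis genes Hmgcs1 and Tm7sf2, each on both strands. The windows lie at chr6:30957836-30958135 (plus strand), chr1:95300222-95300521 (minus), chr10:84473044-84473343 (minus), chr10:103571896-103572195 (plus), chr2:53382054-53382353 (plus) and chr1:212789492-212789791 (minus).
Ucn: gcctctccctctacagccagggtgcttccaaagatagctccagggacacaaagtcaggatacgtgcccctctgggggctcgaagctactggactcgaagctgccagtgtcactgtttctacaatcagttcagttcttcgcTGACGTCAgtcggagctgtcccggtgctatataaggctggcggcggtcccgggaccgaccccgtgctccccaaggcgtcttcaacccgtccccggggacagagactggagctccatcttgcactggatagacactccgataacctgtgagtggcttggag
Hamp: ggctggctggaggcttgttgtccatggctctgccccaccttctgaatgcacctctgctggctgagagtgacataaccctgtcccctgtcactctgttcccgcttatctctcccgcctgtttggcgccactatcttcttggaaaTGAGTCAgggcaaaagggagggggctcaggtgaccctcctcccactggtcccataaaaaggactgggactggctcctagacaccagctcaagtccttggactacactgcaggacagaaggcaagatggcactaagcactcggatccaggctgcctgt
Top2a: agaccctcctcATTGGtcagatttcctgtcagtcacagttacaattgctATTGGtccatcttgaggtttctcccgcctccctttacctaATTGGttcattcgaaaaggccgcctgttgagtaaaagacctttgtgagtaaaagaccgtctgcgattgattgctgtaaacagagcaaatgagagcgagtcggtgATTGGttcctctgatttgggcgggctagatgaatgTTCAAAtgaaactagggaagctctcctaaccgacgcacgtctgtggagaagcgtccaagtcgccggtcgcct
Birc5: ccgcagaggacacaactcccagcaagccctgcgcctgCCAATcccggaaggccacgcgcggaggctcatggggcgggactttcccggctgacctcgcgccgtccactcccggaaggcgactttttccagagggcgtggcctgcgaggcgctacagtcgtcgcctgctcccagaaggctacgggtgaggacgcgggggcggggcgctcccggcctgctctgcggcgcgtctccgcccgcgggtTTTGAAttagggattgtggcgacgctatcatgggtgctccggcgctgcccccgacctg
Hmgcs1: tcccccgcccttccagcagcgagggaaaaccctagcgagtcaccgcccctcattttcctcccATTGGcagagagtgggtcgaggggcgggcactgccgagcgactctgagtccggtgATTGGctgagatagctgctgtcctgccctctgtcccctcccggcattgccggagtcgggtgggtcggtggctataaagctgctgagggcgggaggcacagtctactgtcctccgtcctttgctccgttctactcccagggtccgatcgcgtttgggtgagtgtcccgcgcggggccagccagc
Tm7sf2: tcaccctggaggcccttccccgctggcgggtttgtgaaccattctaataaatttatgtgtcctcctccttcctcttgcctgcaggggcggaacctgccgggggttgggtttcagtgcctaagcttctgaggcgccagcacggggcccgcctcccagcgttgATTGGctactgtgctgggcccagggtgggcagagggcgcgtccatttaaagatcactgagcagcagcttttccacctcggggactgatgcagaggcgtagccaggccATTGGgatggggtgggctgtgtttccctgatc

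The share of windows that hold each set of letters was counted as a description. Of the 26 nerve-only cell cycle genes, 20 had a window, and 11 of these (55%) held CHR and 14 (70%) held CCAAT. Of the 22 nerve-only cholesterol synthesis genes, 16 had a window, and 13 (81.2%) held CCAAT, while 2 (12.5%) held CHR and none held the SRE letters (TCACNCCAC). Of the 122 ganglion-only upregulated genes, 86 had a window, and 11 (12.8%) held AP-1 and 2 (2.33%) held CRE. Among all 33469 windows, 18.3% held CHR, 37.5% CCAAT, 1.12% the SRE letters, 7.33% AP-1 and 1.83% CRE.

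Genes of the Schwann cell repair state included several that rose in SN alone. Of 21 tested, 9 were nerve only upward, 1 ganglion only (Jun), 1 rose and 1 fell in both, 1 was opposite and 8 passed in neither. Ngfr, the low-affinity neurotrophin receptor, was 0.56, 0.85 and 0.36 in SN at 0 d and 4.07, 4.15 and 4.16 at 4 d, while DRG went from 5.01, 4.98 and 4.88 to 4.68, 4.56 and 4.22. The change was 3.54 in SN and -0.47 in DRG (difference 4.02 ± 0.15, adjusted p = 8.05e-15). Tnc, the matrix protein tenascin C, rose by 4.81 in SN and changed by -0.71 in DRG, and Nrg1 (neuregulin 1) by 3.35 and -0.96. Shh (sonic hedgehog) rose by 2.66 in SN from signals between -6.86 and -5.73, and its call was lost under normexp background correction. Gdnf, a trophic factor for neurons, rose in both tissues, by 1.73 in SN and 1.24 in DRG, with a 95% interval of the difference that included 0. Gfap, a glial filament, rose by 2.06 in SN and changed by 0.81 in DRG, and the call of its difference of 1.24 ± 0.43 was lost without SN array 2 of 0 d (1.11), DRG array 3 of 0 d (1.09) or DRG array 2 of 4 d (0.91).

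Myelin genes fell further in SN, with none upregulated. Of 17 tested, 6 were nerve only downward, 2 fell in both, 4 were called in SN without a called difference and 5 passed in neither. The median change was -1.42 in SN and -0.36 in DRG. Mal, a proteolipid of compact myelin, fell by 2.05 in SN and changed by -0.36 in DRG (difference -1.69 ± 0.27). Fa2h, which makes the hydroxylated fatty acids of myelin lipids, fell in both tissues, by 2.59 in SN and 1.3 in DRG.

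Of 26 tested macrophage genes, 11 rose in both, 6 were nerve only upward, 1 (Csf1) was ganglion only, 5 were called in SN without a called difference and 3 passed in neither. Cd68, a lysosomal protein of macrophages, was 2.46, 2.78 and 2.63 in SN at 0 d and 5.45, 5.51 and 5.76 at 4 d, and 0.97, 0.94 and 1.38 in DRG at 0 d and 2.11, 1.97 and 2.12 at 4 d. The changes were 2.95 and 0.97 (difference 1.98 ± 0.24). Gpnmb, a glycoprotein of lipid-laden macrophages, rose by 4.9 in SN and changed by 0.52 in DRG. Apoc1, an apolipoprotein, rose by 5.37 and changed by 0.23. Il1b (interleukin 1 beta) rose in both, by 1.48 in SN and 1.18 in DRG, as did Ccl2, a chemokine that draws monocytes, by 1.53 and 1.01, and Timp1, a metalloprotease inhibitor, by 1.12 and 1.11. The differences of these 3 genes were 0.31 ± 0.55, 0.52 ± 0.29 and 0.01 ± 0.13 and were not called. For Il1b the days overlapped in DRG, with -3.65, -3.14 and -1.76 at 0 d and -1.21, -2.1 and -1.71 at 4 d. Another Il1b probe also rose in both tissues, by 1.86 in SN and 1.54 in DRG. With the DRG control on slide 1 alone, 15 macrophage genes changed in both tissues and 4 were nerve only.

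Of 16 tested T cell and cytotoxic cell genes, 7 were nerve only upward, 6 rose in both, 2 were called in SN without a called difference and 1 passed in neither. Only 7 of the 16 were detected on all 12 arrays, and the split depended on the processing. Nerve-only and same-direction genes were 12 and 3 with signals set to a common floor, chosen after seeing the data. They were 11 and 1 with normexp, and 6 and 9 without DRG array 3 of 0 d. The mean signal of 4 T cell markers in DRG was between -3.03 and -2.84 at 0 d and between -3.06 and -2.85 at 4 d. Cd3d, a subunit of the T cell receptor complex, was -1.79, -1.44 and -1.51 in SN at 0 d and 1.15, 1.25 and 0.89 at 4 d, and in DRG its values of 0 d (-0.73, 0.32 and 0.36) enclosed those of 4 d (-0.23, -0.25 and -0.37). The difference was 2.94 ± 0.33. Cd8b rose in both, by 5.11 in SN and 1.38 in DRG.

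**Figure D4:**
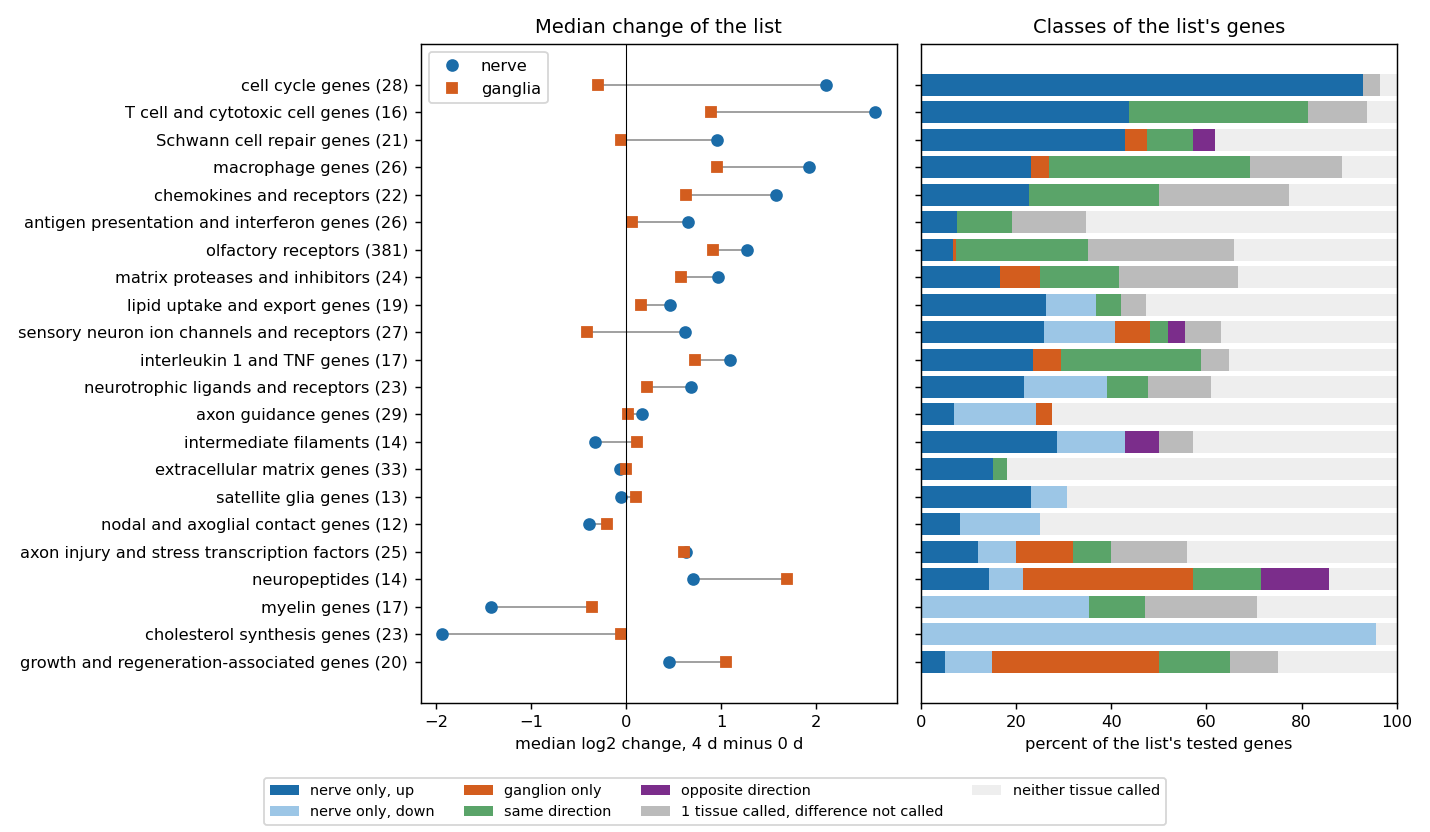
Left, the median log2 change (horizontal axis) of each gene list in SN (circles) and DRG (squares), with the number of tested genes in brackets. Right, the percent of each list's tested genes in each class, where cholesterol synthesis and cell cycle genes fill the nerve-only classes and neuropeptides and regeneration genes have the largest ganglion-only shares.

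Opposite directions were called for 20 probes that rose in SN and fell in DRG and for 40 that did the reverse. Hrk (harakiri, a BH3-only protein of the apoptosis pathway) fell in SN from -0.51, -0.66 and -0.73 to -3.67, -3.81 and -3.7 and rose in DRG from -1.51, -1.58 and -1.5 to -0.14, -0.02 and 0.41. Neither tissue's days overlapped, and the difference was -4.7 ± 0.28 (adjusted p = 1.36e-11). Krt19 (keratin 19) fell by 1.77 in SN and rose by 3.31 in DRG, and Calb1 (calbindin, a calcium-binding protein) fell by 2.31 and rose by 1.29. Of the other Calb1 probes, 1 was opposite too (-2.89 and 1.23), while 2 were nerve only, with changes of -0.5 and -0.1 in DRG. Cidec, a protein of lipid droplets and an adipocyte marker, fell by 1.23 in SN and rose by 2.33 in DRG. Its SN signals were 1.19, -0.26 and -0.51 at 0 d and -1.46, -1.06 and -0.75 at 4 d, so the size of the fall rested largely on array 1 of 0 d. That array was also the highest of the 3 in the mean of 4 adipocyte markers, Cidec among them, at 3.7 against 2.87 and 2.45. In the other direction, Tmem255a rose by 1.56 in SN and fell by 1.45 in DRG, Lgi3 by 1.43 and 1.23, and Ubash3b by 1.53 and 1.11. Another Lgi3 probe was nerve only, with a change of -0.56 in DRG.

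The same-direction class held 998 upregulated and 43 downregulated probes. The change was larger in SN for 192, larger in DRG for 22, and without a called difference for 827. All 4 d arrays were scanned on another day than the 0 d arrays and had more detected probes. A shift common to the 4 d arrays of both tissues would enter this class and cannot be told apart from a shared change. The class held 547 probes after quantile normalization and 126 with normexp, and 312 of its probes were detected on all 12 arrays. Gpr84, a receptor for medium-chain fatty acids on myeloid cells, rose in SN from -5.04, -5.5 and -4.59 to 0.29, 0.27 and 0.44 and in DRG from -4.33, -4.83 and -3.87 to -2.08, -2.02 and -1.76. The changes were 5.37 and 2.39 (difference 2.99 ± 0.27). Stat4, a cytokine-activated transcription factor, rose by 2.73 and 2.89, and Sdc1, the proteoglycan syndecan 1, by 2.3 and 2.53, with differences of -0.16 ± 0.31 and -0.23 ± 0.26 that were not called. Among the downregulated genes, Notch1, a receptor of cell contact signals, fell by 1.62 in SN and by 1.44 in DRG, and Treh (trehalase) fell by 2.82 and by 1.54. Of 381 tested olfactory receptor genes, of which 111 were detected on all 12 arrays, 106 changed in both tissues. This count was 1 under normexp background correction with quantile normalization.

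Pvalb, Mybpc2, Myh4, Actn3 and Xirp2, which skeletal muscle expresses, were the named nerve-only genes with the most negative differences. Myh4, a fast myosin heavy chain, was 8.3, 4.57 and 5.19 in SN at 0 d and 2.12, -1.82 and -1.25 at 4 d, and between 1.63 and 5.07 on the DRG arrays. Its difference was -5.83 ± 1.72 (adjusted p = 0.00779), and those of Pvalb, Mybpc2, Actn3 and Xirp2 were between -6.66 and -5.59. All 7 skeletal muscle markers were nerve only downward. SN array 1 was the highest of the 3 SN arrays at both days, and the part of adjacent muscle in the nerve samples was not tested.

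Of 33 tested extracellular matrix genes, 27 passed in neither tissue (75.4% of all tested probes did so), 5 were nerve only upward and 1 rose in both. Thbs2 (thrombospondin 2) rose by 2.06 in SN and changed by 0.07 in DRG. Col1a1, a fibrillar collagen, changed by -0.72 and 0 on its brightest probe. Of its other probes, 1 changed by -1.11 in SN and -0.85 in DRG, with a call in SN, and 1 fell in both, by 1.22 and 1.02.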

How the data were processed

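Total RNA was hybridized to 1-colour Agilent rat arrays. The intensity values were deposited by the authors as scanner output of Agilent Feature Extraction 10.5.1.1 (per the file headers), background-subtracted but not normalized between arrays. A matrix of log2 values, deposited by the authors and quantile-normalized over the 30 arrays, served as an alternative. Here, spots flagged as non-uniform or population outliers were left out, log2 processed intensities were averaged per probe, and the array's 75th percentile over non-control probes was subtracted. Groups followed the sample titles. limma 3.58.1 (R 4.3.3) was fitted on all 30 arrays in 10 groups. Of 24805 probes with a RefSeq accession, 16618 matched the GRCr8 gene table, which was used for names only; coordinates of probes are rn4. Each gene was represented by its tested probe with the highest mean signal. Named were a fixed panel, the 3 largest called differences of each list and the 5 largest of each class among probes detected on all 12 arrays, 118 genes in all; a gene outside this rule is named with a list or after its values were seen. The members and lists were chosen with earlier results of these data known. A probe below background at 0 d has a lower bound: the mean of 4 d over, per array, the higher of its own signal and the lowest signal well above background. No spot was saturated, and the number of arrays limits the precision. Other normalizations, filters, blocks and left-out arrays were tried. Sprr1a was not analysed here, and single results of some genes are not reported here.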

Additional observations from a re-analysis of the deposited data

Results flagged for a closer look

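The change at 4 d differed between SN and DRG for 5813 probes by the interaction test (limma, adjusted p under 0.05 and over 2-fold), and the values here are the differences in log2 change, SN minus DRG, of the named genes reported here that passed it. Their levels, errors and tests are given above for the genes the text turns on. Nerve-only genes that rose had differences in log2 change of Ngfr 4.02, Shh 2.27, Top2a 2.82, Mmp9 5.18, Scn10a 1.61, Nefl 3.83, Gfap 1.24, Cd68 1.98, Calcb 7.37, Osmr 1.99, Tnc 5.52 and Nrg1 4.32. The size for Mmp9 is uncertain, with values between 3.06 and 8.2 over the settings. Mmp9 was detected on 1 of the 3 SN arrays of 0 d, and its DRG signals at 0 d were -0.3, -4.52 and -5.12. Nerve-only genes that rose had differences in log2 change of Birc5 3.83, Rrm2 3.45, Ccna2 3.24, Gpnmb 4.37, Cxcl14 3.16, Ccl5 2.84, Cxcr4 2.72, Il18 1.64, Cd2 3.78, Cd3d 2.94, Gbp2 1.62, RT1-DMa 1.00 and Thbs2 1.99. RT1-DMa lost its call without SN array 1 or 3 of 0 d, SN array 3 of 4 d, DRG array 3 of 0 d or DRG array 1 or 2 of 4 d, with values down to 0.91. In DRG, RT1-DMa rose by 0.94 and Il18 by 0.88, each just under 2-fold, and the days did not overlap for either. Cd2 was detected on 1 of the 3 arrays of 0 d in each tissue. Nerve-only genes that rose had differences in log2 change of Col18a1 1.48, Nefm 3.13, Apoc1 5.14, Apoc4 3.73, Lipa 1.83, Plxnc1 2.64, Sema4a 2.02, Cntn1 1.87, Gpr83 5.74 and Cela1 4.91. Nerve-only genes that fell had differences in log2 change of Atf5 -2.32, Ret -2.0, Mal -1.69, Cldn19 -1.65, Tm7sf2 -2.39, Hmgcs1 -2.34, Cdh19 -1.61, Epha5 -1.81, Nfasc -1.23, Cadm3 -1.23 and Pvalb -6.66. Nerve-only genes that fell had differences in log2 change of Mybpc2 -5.99, Myh4 -5.83, Actn3 -5.73 and Xirp2 -5.59. For Ret, 2 other probes had differences of -0.38 and -0.29 that were not called. Trpa1 (3.11), Scn1a (2.35), Fabp7 (3.34), Mmp8 (3.73), Or6k6 (4.68), Or12j4 (4.03) and Or51v14 (3.32) were detected on no SN array of 0 d, so these fitted differences rest on a signal below background and are not measured sizes. Their rises in SN were at least 1.09-fold, 1.3-fold, 4.45-fold, 3.34-fold, 16.8-fold, 2.19-fold and 3.18-fold in that order. Each lost its call with signals set to a common floor, except Or6k6, which was also detected on no DRG array of 0 d and lost its call with slide as a fixed block, as did Or12j4 and Or51v14. Spp1, called in neither tissue by itself, had a difference of -1.11, which lost its call in 6 settings, quantile normalization among them. Ganglion-only genes that rose in DRG had differences in log2 change of Atf3 -4.41, Jun -1.05, Gal -4.88, Npy -2.54, Gap43 -1.89, Ucn -6.13, Csrp3 -5.55, Flrt3 -2.46, Il1r2 -2.73, Serpina3n -4.35, Hamp -6.80, Ptprh -5.39 and Il24 -5.29. Opposite-direction genes that fell in SN had differences in log2 change of Vip -10.01, Scn3a -2.51, Krt19 -5.08, Hrk -4.70, Calb1 -3.60 and Cidec -3.56. Genes called in both tissues with the larger rise in SN had differences in log2 change of Fosl1 4.08, Msr1 2.26, Il1rn 2.26, Cd8b 3.73 and Gpr84 2.99. Arg1, which rose in both tissues and further in DRG, had a difference of -2.83, and Treh and Fa2h, which fell in both and further in SN, had differences of -1.28 and -1.30. Treh lost its call in 15 settings, among them those without SN array 2 or 3 of 0 d, SN array 3 of 4 d, DRG array 1 or 3 of 0 d or DRG array 3 of 4 d, with values between -2.44 and -0.86. Ganglion-only genes that fell in DRG had differences in log2 change of Oasl 2.32, Amigo3 2.22, Asic1 2.01, Cacng2 1.72 and Polm 1.59. Opposite-direction genes that rose in SN had differences in log2 change of Penk 4.19, Vom2r36 3.72, Tmem255a 3.0, Lgi3 2.66 and Ubash3b 2.64.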

How the results depend on the processing

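The main counts were 5813 called interactions and 3800 nerve-only, 360 ganglion-only, 1041 same-direction and 60 opposite-direction probes. Leaving out 1 array at a time gave 5413 to 6402 called interactions, 3500 to 3980 nerve-only, 250 to 688 ganglion-only, 791 to 1182 same-direction and 50 to 98 opposite-direction probes. Normexp background correction with quantile normalization gave 3080, 2089, 159, 126 and 14. Quantile normalization, which moved the median change from 0.11 to -0.01 in SN and from 0.13 to 0 in DRG, gave 547 same-direction probes, as did the authors' matrix. Without a filter on dim probes, 653 probes were ganglion only and 149 opposite, and 116 were opposite with probes detected in any of the 4 groups. With only probes detected on all 12 arrays, the ganglion-only, same-direction and opposite counts were 165, 313 and 33, over fewer probes tested. By adjusted p alone, 15081 interactions were called. The methods' t-test in each tissue, with unadjusted p and no test of the difference, put 969 probes in ganglion only. With signals set to a common floor, chosen after seeing the data, 366 probes were same-direction and 31 opposite. The cause of these shifts was not tested. The counts under the other alternatives stayed within 1.5 times.

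The median difference of sensory neuron channels (0.34) was 0.14 after quantile normalization, 0.06 with normexp and 0.15 in the authors' matrix. That of Schwann cell repair genes (1.17) was 0.66 with normexp, 0.63 for probes detected on all 12 arrays, 0.69 with the floor, and 0.75 with slide as a fixed block, with the DRG control on slide 1 only, and with slides 1 and 5 only. That of neuropeptides (-0.78) was -1.56 for probes detected on all 12 arrays and -1.51 with the floor. That of olfactory receptors (0.39) turned to -0.24 with slide as a fixed block and with slides 1 and 5 only, both chosen after seeing the data.

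SN and DRG arrays share replicate numbers, but nothing in the labels ties a number to a rat or day. The numbers were therefore not taken as pairing the samples. Of 6 same-numbered pairs, 1 had a correlation of deviations over 0.1 (range -0.2 to 0.24). Pairs of unlike number ranged from -0.22 to 0.24, so the correlations cannot decide whether the numbers pair the samples. With the replicate block, 5792 interactions were called, and with the replicate block within day 5778. Of the 118 genes that the naming rule gives, 89 kept their side of the threshold in every setting run for them (27 or 28 settings), 23 lost a call in some setting and 0 reversed. These genes had 38 other tested probes, of which 34 gave a difference of the same sign as the probe used. Of the rest, 1 had a called difference of the opposite sign. The other probes of Asic1 gave opposite signs without a call (-0.03, -0.58 and -0.14). Signals near background limit the falls and rises of dim genes.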

Other observations

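Mast cell transcripts fell in the nerve. Of 6 mast cell markers tested, 4 (Cpa3, Cma1, Ms4a2 and Mcpt1, which encode granule proteases and a subunit of the IgE receptor) were nerve only downward. The mean signal of the 6 markers was between 0.54 and 0.74 in SN at 0 d and between -0.56 and -0.36 at 4 d, so the days did not overlap, and it lay between -3.08 and -2.3 on the DRG arrays. Of 10 fibroblast and perineurial markers, 1 was nerve only downward and 9 passed in neither tissue, but 4 had a called difference, each with the lower change in SN, and the median difference was -0.86. Their mean signal was between 5.06 and 5.13 in SN at 0 d and between 4.41 and 4.64 at 4 d, without overlap, and between 2.38 and 2.61 in DRG at 0 d and between 2.66 and 2.93 at 4 d. Of 9 endothelial markers, 7 passed in neither (75.4% of all tested probes did so), 1 was nerve only upward and 1 nerve only downward.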
